A study of Mus musculus with 5 samples.

Results

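Cells carrying both Atoh1, the basic helix-loop-helix factor that specifies rhombic lip derivatives, and the homeobox gene Barhl1, expressed in granule precursors, were taken as granule progenitors of the embryonic mouse cerebellum and split by 2 genes of dividing cells. All of them were chosen by measured counts of these 4 genes, above 0 counting as detected. The name is that of this rule, as part of these cells also carried a UMI (a counted transcript) of Otx2 or Eomes, genes of other rhombic lip cells. Cells with a count of both Mki67 (the Ki-67 antigen) and Top2a (a DNA topoisomerase of dividing cells) numbered 840, and cells with a count of neither numbered 924. They are called Mki67+ Top2a+ and Mki67- Top2a- cells here. A further 498 cells carried only one of the genes and were left out of the comparison. Together these are 2262 cells of 4311 in the rhombic lip libraries and of 6987 in the series.

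The series concerns the cells of origin of Group 3 and Group 4 medulloblastoma, a cerebellar tumour of childhood. Single cells of developing mouse cerebellum were profiled on the 10x Chromium platform, which counts transcripts at their 3' ends with unique molecular identifiers (UMIs). The 4 libraries used here carry RL (rhombic lip) in their titles, 2 named for embryonic day 14 and 2 for day 13, and neither strain, genotype nor treatment is given for them beyond the letters UT. RL e13 replicate 2 has day 13 in its title and day 14 in its age tag. The library titled EomesCreER, of day 16, was not used. The labels do not tell whether the libraries are separate animals or pools. The p-values below therefore reflect only how far the difference between Mki67+ Top2a+ and Mki67- Top2a- cells varies over these 4 libraries, possibly for technical reasons. The test also draws the spread of each gene toward that of genes at similar levels, so small p-values rest in part on other genes.

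Granule cells are the small glutamatergic neurons of the cerebellar cortex. Their progenitors leave the upper rhombic lip, spread over the surface of the cerebellum and divide there in response to Sonic hedgehog, then leave the cycle, switch on a neuronal programme and migrate. Atoh1 keeps these cells in the progenitor state, and Notch, BMP, Wnt and receptor tyrosine kinase signals are known to bear on when they stop dividing.

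Values are given in the order RL e14 replicate 1, RL e14 replicate 2, RL e13 replicate 1, RL e13 replicate 2. The Mki67+ Top2a+ group held 249, 169, 21 and 401 cells and the Mki67- Top2a- group 297, 196, 26 and 405. The Mki67+ Top2a+ cells made up 36.5% (95% Wilson interval 32.9 to 40.1), 36.1% (31.9 to 40.6), 30.4% (20.8 to 42.1) and 38.5% (35.6 to 41.5) of the Atoh1+ Barhl1+ cells, and these intervals overlap. With every cell thinned to 8000 UMIs, all 4 genes detected anew and shallower cells left out (4, 3, 2 and 9 of the Atoh1+ Barhl1+ cells), the shares were 28.3%, 27.2%, 22.0% and 30.7%. The intervals cover counting error only.

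The groups differed in depth. Median UMIs per cell were 20605, 26617, 25839 and 22677 in Mki67+ Top2a+ cells and 14524, 19262.5, 18974 and 16760 in Mki67- Top2a- cells. Levels below are therefore means of values scaled to the same total in every cell, written as CPM (counts in 1000000), and a comparison of unscaled UMIs per cell follows them. 3 cell barcodes were shared by 2 of the libraries, and no doublet caller was run.

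On the Mki67+ Top2a+ side the median cell held 8.5 UMIs of Mki67 and 17 of Top2a, and 25 of the 840 cells held exactly 1 of each. Of the 498 cells with only one of the genes, 247 held a single UMI of it. Mki67 stood at 422, 443, 416 and 532 CPM and Top2a at 934, 900.5, 765 and 956 CPM on this side. These values chose the cells and are a description.

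The other label did not hold for all of its cells. A UMI of Rrm2, Hells or Uhrf1, genes of DNA synthesis and its upkeep, was found in 66.0%, 69.4%, 65.4% and 68.4% of Mki67- Top2a- cells and in 96.4%, 95.3%, 100% and 96.0% of Mki67+ Top2a+ cells. Cells with 3 or more UMIs of the neuronal gene Mapt and no Atoh1, Sox2, Mki67 or Top2a, which should lack these genes, had one in 31.0% of 197 cells, at a median of 17456 UMIs per cell against 16583.5 in Mki67- Top2a- cells. The share in Mki67- Top2a- cells lay above that in the neurons, and the side is therefore named by its rule and not as non-cycling.

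Of the gate genes, Atoh1 and Barhl1 were lower in Mki67+ Top2a+ cells in every library but RL e13 replicate 1, where they were higher. Atoh1 stood at 323, 312, 603 and 382 CPM in Mki67+ Top2a+ cells and at 411, 362, 444 and 432 in Mki67- Top2a- cells. Barhl1 stood at 455, 434, 296 and 423 and 477, 462, 232 and 451 CPM. The groups overlapped for both genes, and no test was run because both chose the cells.

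RL e13 replicate 1 stood apart and was the smallest library of the gate. Its 26 Mki67- Top2a- cells held progenitor genes at a summed 2011 CPM (Sox2, Fabp7, Slc1a3, Hes5 and Ttyh1), where the lowest library held 278, and GABAergic genes (Ptf1a, Pax2, Gad1, Gad2 and Slc32a1) at up to 36.9 CPM against a lowest value of 2.06. Mki67+ Top2a+ cells held 322 to 835 CPM of the progenitor genes and 0 to 2.83 CPM of the GABAergic genes. Endothelial, microglial, meningeal and oligodendrocyte genes summed to at most 4.76 CPM in any profile, red blood cell genes to 53.3 and roof plate and choroid plexus genes to 23.7. Eomes and Otx2, genes of other rhombic lip cells, were also found within the gate. A UMI of Otx2 was found in 57.4%, 62.1%, 57.1% and 47.6% of Mki67+ Top2a+ cells and in 43.8%, 48.5%, 19.2% and 35.3% of Mki67- Top2a- cells, and one of Eomes in 28.0% of all 840 and 25.6% of all 924 cells. Only 1 GABAergic cell was found outside the gate, too few for a background share of these genes. With a further marker counted in, 96 of 249, 62 of 169, 4 of 21 and 182 of 401 Mki67+ Top2a+ cells carried none of them, and 143 of 297, 87 of 196, 18 of 26 and 230 of 405 on the other side. The part of GABAergic cells and radial glia in the results was not tested, results that move without the cells carrying Eomes, Otx2 or the further marker are named, and counts are given below with and without RL e13 replicate 1.

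Genes of division were far higher in Mki67+ Top2a+ cells, and as the split used such genes this is a description only. All 20 of 20 S phase genes and all 20 of 20 G2 and M phase genes were higher, with median log2 differences of 1.35 and 4.21. Nusap1, a spindle protein, stood at 408 against 5.39 CPM, and Ccnb2, a mitotic cyclin, at 199 against 11.1. Mcm2, a replication licensing factor, had the smallest log2 difference of the S phase list, at 90.0, 98.6, 154 and 82.2 CPM against 67.4, 78.0, 106 and 63.2.

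Of 8220 genes tested with limma, 1134 were higher in Mki67+ Top2a+ cells (13.8%) and 1241 lower (15.1%), at an adjusted p under 0.05 by Benjamini-Hochberg over all genes tested. Differences are on the log2(CPM + 5) scale, Mki67+ Top2a+ minus Mki67- Top2a-, with the library as a block. Outside a list of 367 cell cycle genes, 10.4% were higher and 15.7% lower. Leaving out RL e13 replicate 1 made the shares 21.6% higher and 30.1% lower. Leaving out RL e14 replicate 1, RL e14 replicate 2 or RL e13 replicate 2 instead left 722, 760 and 719 genes higher. In the same order 455, 471 and 430 were lower, of 8281, 8195 and 8181 tested. No replicate block left 794 higher and 499 lower of 8220. These shares and counts are the background for the counts below, and the median over all genes tested was -0.08. The groups did not overlap for 11.8% of all genes tested as higher and 11.7% as lower, the background for each gene without overlap below.

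**Figure D1:**
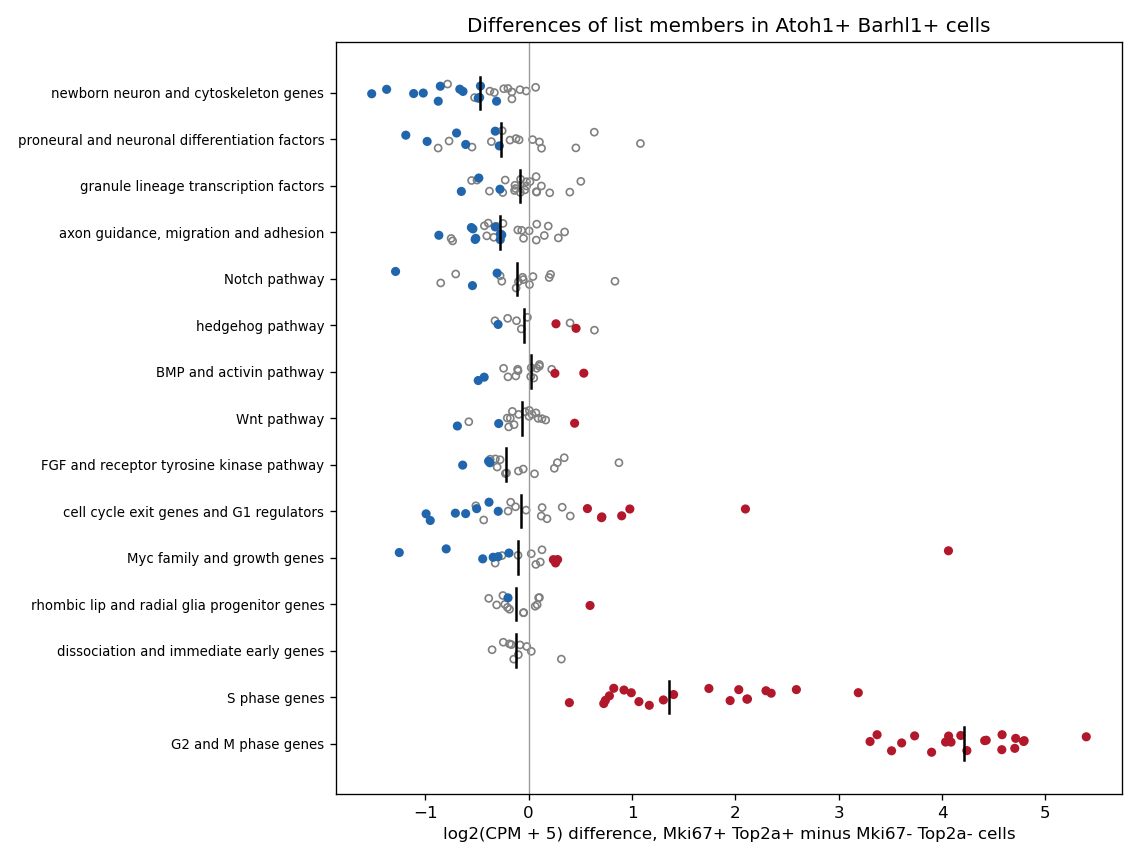
Log2(CPM + 5) differences of the tested members of 15 gene lists, 1 point a gene, filled where limma's adjusted p was under 0.05 (red higher, blue lower in Mki67+ Top2a+ cells) and open where it was not. Black bars are list medians, which lie at -0.47 for newborn neuron genes and at 4.21 for G2 and M phase genes.

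Structural genes of newborn neurons were lower in Mki67+ Top2a+ cells. Of 24 such genes 23 were tested, 12 passed lower and 0 higher (0 also at an unadjusted p under 0.05), where 15.1% of all genes were lower. The list's median difference was -0.47 against -0.08 for all genes. With RL e13 replicate 1 left out, 22 of 23 passed lower against 30.1% of all genes. With each of the other libraries left out, 10 to 12 did, where 430 to 471 of 8181 to 8281 genes were lower. No replicate block left 7 lower, where 499 of 8220 genes were. A marker list of postmitotic neurons, whose Mapt, Ina, Nefl and Nefm are also in this list, summed to 139 to 260 CPM in Mki67+ Top2a+ cells and to 288 to 480 CPM in Mki67- Top2a- cells, and the part of mature neurons or doublets in the difference was not tested.

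Mapt, which encodes the microtubule protein tau, stood at 13.7, 15.4, 11.4 and 21.7 CPM in Mki67+ Top2a+ cells and at 59.5, 96.1, 19.0 and 66.7 in Mki67- Top2a- cells. The groups overlapped only through RL e13 replicate 1, the lowest library on both sides. Its log2 difference was -1.52 ± 0.26 (SE, limma adjusted p = 0.00603), lower in 4 of 4 libraries. Mapt lies at chr11:104231390-104332090 on the plus strand (GRCm38, GENCODE M21), and as the kit reads 3' ends its isoforms are not told apart.

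Stmn4, a stathmin that binds tubulin, stood at 24.6, 19.3, 11.4 and 31.5 CPM against 52.2, 103, 35.2 and 73.2, and the groups did not overlap. Its difference was -1.37 ± 0.20 (limma adjusted p = 0.00289). Ina, a neuronal intermediate filament, stood at 47.3, 39.0, 66.0 and 64.2 CPM against 98.7, 165, 98.7 and 130.0, again with no overlap (difference -1.11 ± 0.21, limma adjusted p = 0.0084). Without cells carrying Eomes, Otx2 or the further marker, Ina did not pass (-0.21, limma adjusted p = 0.142), and Mapt was -0.67 (limma adjusted p = 0.00343).

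Dcx, the microtubule protein doublecortin of migrating neurons, was at 87.0, 78.3, 44.2 and 87.8 CPM against 177, 223, 68.2 and 190.0. RL e13 replicate 1 was again the lowest library on both sides, and its Mki67- Top2a- value lay within the range of the other group. The difference was -1.02 ± 0.13 (limma adjusted p = 0.00196). Tubb3, the neuronal beta tubulin, was the most abundant of these and reached 429, 373, 529 and 549.5 CPM in Mki67+ Top2a+ cells against 736, 968, 823 and 915 (difference -0.87 ± 0.12, limma adjusted p = 0.00196).

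Tubb3 was -0.38 without the cells carrying Eomes, Otx2 or the further marker, and 12 of 22 genes of the list passed lower there. That fit also lacked RL e13 replicate 1, and 1839 of 8131 genes were lower in it. With only that library left out, 22 of 23 genes of the list passed lower. The RNA-binding genes Elavl4 (-0.67) and Elavl3 (-0.49), the growth cone gene Gap43 (-0.64), Stmn2 (-0.85), Stmn3 (-0.31), Dpysl3 (-0.47) and the splicing factor Srrm4 (-0.47) made up the rest of the 12 that passed with all cells and libraries. The 11 that did not pass included Map1b (-0.16), Nrn1 (-0.02) and Igfbpl1 (0.07). Cntn2, a contactin of maturing granule cells, fell under the filter of 10 CPM and stood at 5.79 against 13.8 CPM.

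**Figure D2:**
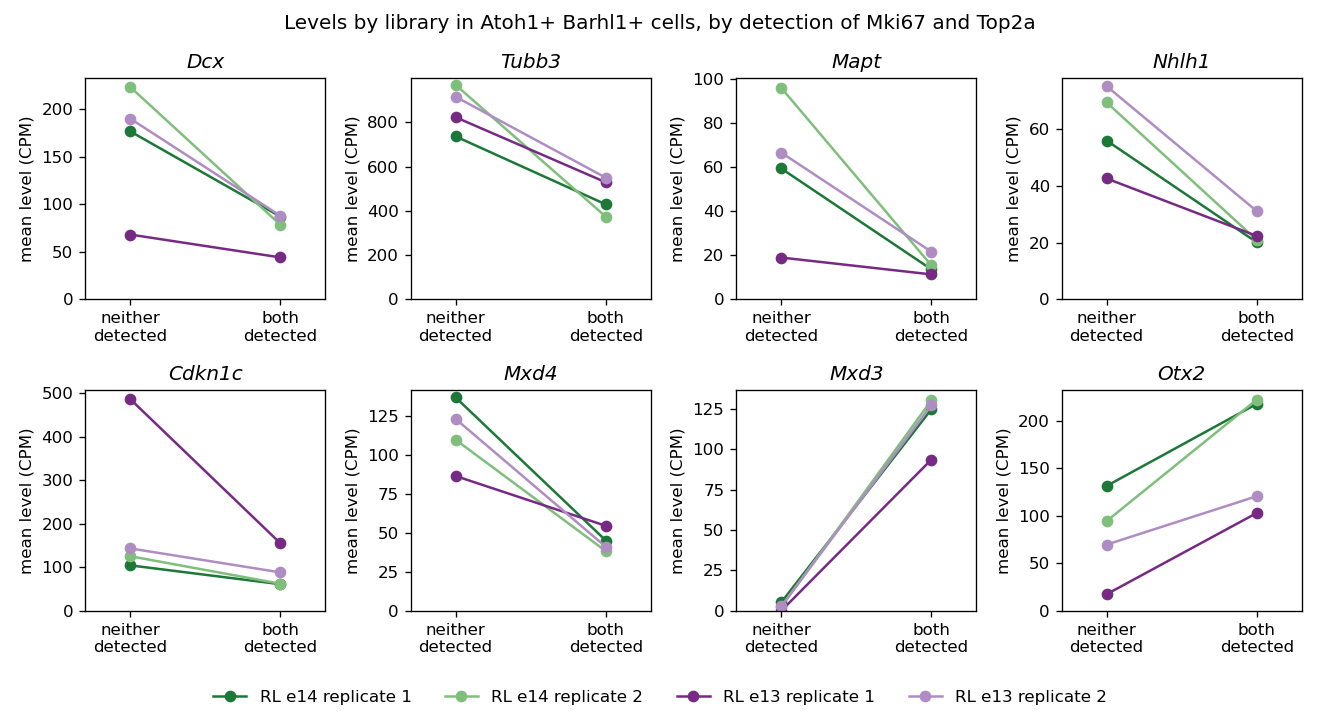
Mean level in CPM of 8 genes in cells with neither or both of Mki67 and Top2a detected, 1 line a library, each axis starting at 0. Dcx, Tubb3, Mapt, Nhlh1, Cdkn1c and Mxd4 fall from left to right in all 4 libraries, and Mxd3 and Otx2 climb in all 4.

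Neuronal differentiation factors were lower in part. Of 24 genes 20 were tested, and 6 passed lower and 0 higher (4 higher and 8 lower at an unadjusted p under 0.05), with a median of -0.27. Of all genes 15.1% were lower and 13.8% higher. In the 3 larger libraries alone, 12 of 20 passed lower and 4 higher, against 30.1% and 21.6% of all genes. Leaving out another library gave 4 lower and 0 higher each time, where 430 to 471 of all genes were lower and 719 to 760 higher. No replicate block left 3 lower, where 499 of 8220 genes were.

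Nhlh1, a helix-loop-helix factor of newborn neurons, stood at 20.1, 20.9, 22.4 and 31.1 CPM in Mki67+ Top2a+ cells against 56.0, 69.5, 42.6 and 75.2. The groups did not overlap, and the difference was -1.19 ± 0.13 (limma adjusted p = 0.000909). Its relative Nhlh2 stood at 18.4, 25.9, 23.9 and 25.6 against 32.2, 52.2, 41.8 and 39.4 CPM, likewise with no overlap (difference -0.70 ± 0.10, limma adjusted p = 0.00354).

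The zinc finger genes St18 (-0.98) and Myt1l (-0.61), the HMG box gene Sox4 (-0.32) and Bhlhe22 (-0.28) were the other 4 that passed. Insm1, a zinc finger factor of the transition from progenitor to neuron, went the other way. It stood at 678, 714, 613 and 611 CPM against 511, 579.6, 209 and 492, with no overlap, but did not pass (difference 0.64 ± 0.20, limma adjusted p = 0.0532). Without RL e13 replicate 1 it passed as higher (0.34, limma adjusted p = 7.98e-06).

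Neurod1, a factor of granule cell maturation, turned on the same library. It stood at 43.8, 26.7, 32.0 and 39.9 CPM against 53.0, 39.4, 4.99 and 65.4, and its difference was 0.13 ± 0.40 over 4 libraries (limma adjusted p = 0.83). With that library left out it was -0.46 (limma adjusted p = 0.000685). Neurod2 (0.46, limma adjusted p = 0.0746) and Hes6 (0.04, limma adjusted p = 0.746) did not pass.

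The sequences just before the start of 4 genes that differed are shown because their letters bear on these lists: E-box words of the kind Atoh1 and related helix-loop-helix factors bind, and CCAAT boxes common in mitotic genes. The E-box was searched as CAGATG or as the palindromes CAGCTG and, as a further form, CATATG, and the CCAAT box as CCAAT, on both strands of the 250 bases before each start in RefSeq's GRCm38.p6 table, where 6365 of the 8220 genes tested had an entry. Capitals mark E-box words in the first 3 lines and CCAAT words in Ccnb2, and CCAAT words in the first 3 lines stay in lower case. Each line gives its gene's strand 5' to 3', from chr1:172057752-172057841 (minus strand), chr3:102009976-102010065 (plus), chr8:122699203-122699292 (minus) and chr9:70421555-70421664 (minus).
Nhlh1: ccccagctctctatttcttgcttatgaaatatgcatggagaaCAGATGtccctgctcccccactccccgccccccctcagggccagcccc
Nhlh2: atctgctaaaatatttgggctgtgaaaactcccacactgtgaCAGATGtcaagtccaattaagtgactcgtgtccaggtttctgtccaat
Cbfa2t3: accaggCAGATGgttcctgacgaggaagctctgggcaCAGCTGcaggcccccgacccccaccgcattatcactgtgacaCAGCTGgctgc
Ccnb2: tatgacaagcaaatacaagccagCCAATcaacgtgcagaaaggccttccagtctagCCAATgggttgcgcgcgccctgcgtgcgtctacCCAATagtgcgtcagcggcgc

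Nhlh1 and Nhlh2 each held 1 E-box word, CAGATG, starting at -203 and -127 from the start. Cbfa2t3, a repressor subunit named further on, held 3, at -177, -146 and -104, in a stretch that overlaps an exon of the antisense gene Gm10612 in GENCODE. At least 1 of the 3 words was found in 9 of 14 matched differentiation factors, 6 of 13 newborn neuron genes, 5 of 12 Notch genes, 4 of 8 immediate early genes and 1 of 16 S phase genes, against 23.1% of matched genes tested and 28.1% of all 32851 promoters in the table. The cell cycle exit and G1 genes, the list of Cbfa2t3, held one in 4 of 18, near that background. Granule lineage factors held one in 4 of 17, guidance genes in 4 of 21, hedgehog genes in 2 of 9 and BMP genes in 3 of 12. For progenitor genes it was 2 of 12, for Myc network genes 2 of 13, for Wnt genes 3 of 11 and for receptor tyrosine kinase genes 4 of 13. CCAAT was found in 15 of 17 matched G2 and M phase genes, 11 of 16 S phase genes, 12 of 17 granule lineage factors and 8 of 12 each of the Notch, BMP and progenitor genes, against 41.5% of matched genes tested and 33.8% of all promoters. Lists below the share of genes tested included Myc network genes (3 of 13), hedgehog genes (3 of 9), Wnt genes (4 of 11) and newborn neuron genes (5 of 13). Ccnb2 held it at -87, -54 and -21. A match is a description of these letters, not evidence of binding.

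Transcription factors that define the granule lineage mostly did not pass. Of 25 genes 24 were tested, 3 passed lower and 0 higher (2 higher at an unadjusted p under 0.05), with a median of -0.08, equal to that of all genes. The share of 3 in 24 is near the background of 15.1%. The 3 larger libraries gave 6 of 23 lower and 4 higher, against 30.1% and 21.6% of all genes. Leaving out another library gave 2 lower each time, and no replicate block 0.

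Uncx, a homeobox gene, was at 184, 228, 79.1 and 163 CPM against 254, 328, 168 and 248, overlapping through RL e13 replicate 1 and RL e14 replicate 2 (difference -0.65 ± 0.10, limma adjusted p = 0.004). En1 (-0.48), a homeobox gene of the midbrain and cerebellum, and Meis1 (-0.28), a TALE homeobox gene, were the others. Pax6, a paired box gene of granule cells, did not pass at 334, 289, 361 and 288 against 307, 294, 129 and 278 CPM (difference 0.40 ± 0.24, limma adjusted p = 0.24). Its difference rested on RL e13 replicate 1, without which it was 0.05 (limma adjusted p = 0.377). Zic1 (0.12, limma adjusted p = 0.108), a zinc finger gene of the lineage, did not pass.

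Genes of cell cycle exit and the G1 phase split in both directions. All 24 were tested, and 6 passed higher and 7 lower, against 13.8% and 15.1% of all genes. With RL e13 replicate 1 left out, 8 and 11 passed, against 21.6% and 30.1% of all genes. With another library left out, 5 to 6 and 4 to 5 passed. Cdkn1c, which encodes the inhibitor p57, stood at 61.3, 62.4, 155 and 88.5 CPM in Mki67+ Top2a+ cells against 105, 126, 487 and 144. It was lower in each of 4 libraries, and the high level in RL e13 replicate 1 made the groups overlap (difference -0.99 ± 0.15, limma adjusted p = 0.00409). With cells of the 2 groups matched on UMIs within 10%, where 9.93% of all genes were higher and 7.07% lower, it no longer passed (-0.42, limma adjusted p = 0.307).

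The other lower members were the stress gene Trp53inp1 (-0.71), the G1 kinase Cdk6 (-0.95), the ETO family repressor subunits Cbfa2t2 (-0.61) and Cbfa2t3 (-0.50), and the antiproliferative genes Btg2 (-0.38) and Btg1 (-0.29). Cbfa2t2 stood at 63.5, 76.0, 58.5 and 77.5 CPM against 101, 112, 87.9 and 132 with no overlap. Cbfa2t3 stood at 142, 139, 100.5 and 148 CPM against 203, 215, 122 and 230.4, and RL e13 replicate 1 was the lowest library on both sides.

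Several inhibitors of cyclin-dependent kinases went the opposite way from Cdkn1c. Cdkn2c, which encodes p18, stood at 30.6, 37.4, 23.0 and 25.9 CPM in Mki67+ Top2a+ cells against 3.38, 3.92, 2.0 and 2.44 (difference 2.10 ± 0.13, limma adjusted p = 4.39e-05). Cdkn2d, which encodes p19, stood at 81.0, 91.5, 58.4 and 80.6 against 33.5, 46.5, 28.0 and 40.6 CPM (difference 0.98 ± 0.09, limma adjusted p = 0.000326). Cdkn1b, which encodes p27, stood at 82.5, 93.0, 89.7 and 104 against 55.0, 67.5, 47.9 and 74.0 CPM (difference 0.57 ± 0.09, limma adjusted p = 0.00491). None of these 3 genes overlapped between the groups, which held for 11.8% of all genes as higher. The atypical cyclin Ccng2 (0.71), the pocket protein gene Rbl1 (0.90) and the imprinted zinc finger gene Plagl1 (0.71) were also higher.

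Unlike Cdk6, the cyclins Ccnd1 and Ccnd2 and the kinase Cdk4 did not pass. Ccnd2 was at 950.2 against 878 CPM (0.18, limma adjusted p = 0.384). Without cells carrying Eomes, Otx2 or the further marker its direction turned and it passed as lower (-0.93, limma adjusted p = 1.46e-12). Cdk4 was at 1143 against 1045 (0.13, limma adjusted p = 0.0779). Ccnd1, a target of hedgehog and Wnt signals, was at 231, 241, 80.1 and 231 against 296, 309.6, 211 and 229 CPM and did not pass (-0.51, limma adjusted p = 0.0961).

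The Myc network, which sets growth against differentiation, was split as well. Of 18 genes 17 were tested, and 4 passed higher and 6 lower, against 13.8% and 15.1% of all genes. The 3 larger libraries alone gave 6 and 8, against 21.6% and 30.1% of all genes. Another library left out gave 1 to 3 higher and 2 to 4 lower. Mxd3, a partner of Max expressed in dividing cells, stood at 125, 130.2, 93.6 and 127 CPM against 5.20, 2.45, 0 and 2.72 (difference 4.06 ± 0.13, limma adjusted p = 3.95e-06). Mxd3 is also in the cell cycle list.

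Mxd4, an Mxd repressor of the same family, was the reverse, at 45.2, 38.4, 54.7 and 41.1 CPM against 137, 110.0, 86.7 and 123 with no overlap (difference -1.25 ± 0.16, limma adjusted p = 0.00154). The related repressor Mxi1 (-0.44), the shared partner Max (-0.34) and the glycolytic gene Ldha (-0.19) were lower as well. Myc itself was low on both sides, at 10.7 against 23.2 CPM (-0.80, limma adjusted p = 0.0111).

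Mycn, the Myc family member that granule progenitors need to proliferate, stood at 128, 165, 152 and 139.6 CPM in Mki67+ Top2a+ cells against 169.8, 192, 190.1 and 168 in Mki67- Top2a- cells. The groups did not overlap, and the difference was -0.30 ± 0.06 (limma adjusted p = 0.012). The direction depends on scaling, as unscaled UMIs per cell gave 0.17. Mycl did not pass (-0.10, limma adjusted p = 0.433). The nucleolar genes Ncl (0.24) and Nop58 (0.28) and the polyamine enzyme gene Odc1 (0.26) were higher.

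Hedgehog genes passed at the rate of all genes, 3 of 10 tested against 28.9%. Of the 17 listed, 2 passed higher and 1 lower, the last being Mycn. The 3 larger libraries alone gave 4 and 4 of 11, against 21.6% and 30.1% of all genes. Leaving out another library gave 0 higher and 0 to 1 lower. The surface receptor subunit Gas1 was higher, at 260.2, 337, 122 and 214 CPM against 220.4, 240.1, 120.1 and 171 (difference 0.26 ± 0.08, limma adjusted p = 0.0478), and so was Prkaca, the protein kinase A subunit (0.46 ± 0.13, limma adjusted p = 0.038). Ptch1, the receptor and a target of the pathway, did not pass at 31.8, 41.6, 17.5 and 26.6 against 36.2, 49.1, 13.2 and 36.7 CPM (difference -0.12 ± 0.14, limma adjusted p = 0.547). The transducer Smo (-0.01) and the co-receptor Boc (-0.20) did not pass either, and the target Gli1 averaged 0.417 against 0.247 CPM, under the filter. Gli3, mainly a repressor of the pathway, was at 39.7, 42.9, 36.9 and 38.4 against 17.8, 21.6, 44.1 and 17.4 CPM (difference 0.64 ± 0.21, limma adjusted p = 0.0629) and passed as higher without RL e13 replicate 1 (0.93, limma adjusted p = 1.68e-06).

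Among Notch genes a ligand differed most. Of 23 genes 16 were tested, and 3 passed lower and 0 higher (1 higher at an unadjusted p under 0.05). The share of 3 in 16 is near the 15.1% of all genes that were lower. Without RL e13 replicate 1, 6 passed lower and 1 higher of 14, against 30.1% and 21.6% of all genes. Without any other library, 1 passed lower and 0 higher. Dll3, a ligand that acts within the cell as an inhibitor of Notch, stood at 12.6, 12.0, 13.4 and 13.4 CPM in Mki67+ Top2a+ cells and 35.4, 48.7, 32.0 and 39.5 in Mki67- Top2a- cells. The groups did not overlap (difference -1.29 ± 0.14, limma adjusted p = 0.00073).

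The ligand Dll1 did not follow it, at 18.1, 31.4, 60.6 and 37.9 against 22.2, 18.4, 95.2 and 38.6 CPM (-0.06, limma adjusted p = 0.837). Mfng, a fringe glycosyltransferase that modifies the receptors (-0.54), and Rbpj, the pathway's DNA-binding factor (-0.30), were lower. The targets Hes5 (-0.85, limma adjusted p = 0.121) and Hes1 (0.04, limma adjusted p = 0.884) and the receptor Notch1 (0.21, limma adjusted p = 0.417) did not pass. Hes5 stood at 10.7, 13.4, 208 and 44.3 CPM in Mki67- Top2a- cells, with RL e13 replicate 1 the highest library.

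BMP genes passed at 4 of 16 and Wnt genes at 3 of 18, where 28.9% of all genes passed in either direction. Of 25 BMP and activin genes 16 were tested, 2 passed higher and 2 lower: the receptor Bmpr1a (0.25) and the target Msx2 (0.53) were higher, the ligand Gdf11 (-0.49) and the secreted antagonist Nbl1 (-0.43) lower. The 3 larger libraries gave 5 higher and 4 lower, where 21.6% and 30.1% of all genes passed, and leaving out any other library gave 0 and 0. Msx2 stood at 26.0, 24.9, 75.7 and 26.2 CPM against 16.8, 10.8, 64.8 and 17.2, and RL e13 replicate 1 was the highest library on both sides. Msx2 was 0.0009 without cells carrying Eomes, Otx2 or the further marker (limma adjusted p = 0.997). The targets Id1 (0.22, limma adjusted p = 0.621) and Id2 (0.10, limma adjusted p = 0.379) did not pass.

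Of 29 Wnt genes 18 were tested, and 1 passed higher and 2 lower. Without RL e13 replicate 1, 2 and 5 of 17 passed, against 21.6% and 30.1% of all genes, and 0 and 1 to 2 without another library. The ligand Wnt3 stood at 7.47, 8.94, 23.7 and 11.8 CPM against 15.6, 14.8, 42.7 and 24.1 (difference -0.69 ± 0.12, limma adjusted p = 0.00609) and did not pass with cells matched on UMIs (-0.50, limma adjusted p = 0.214). Nkd1, a feedback inhibitor, was lower at 527, 487, 768 and 705 against 649, 569.6, 928 and 908 CPM (difference -0.29 ± 0.04, limma adjusted p = 0.00279), with a difference of 0.18 in unscaled UMIs. Lef1, a nuclear effector, was higher (0.45, limma adjusted p = 0.0457). The feedback target Axin2 (0.09, limma adjusted p = 0.57) and the beta-catenin gene Ctnnb1 (-0.10, limma adjusted p = 0.32) did not pass.

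Of 24 genes of receptor tyrosine kinase signalling 16 were tested, and 3 passed lower and 0 higher (1 higher at an unadjusted p under 0.05). The share of 3 in 16 is near the 15.1% of all genes that were lower. Without RL e13 replicate 1, 4 passed lower and 4 higher of 15, against 30.1% and 21.6% of all genes. Without any other library, 0 and 0 passed. The 3 were the ETS factor Etv5 (-0.64, limma adjusted p = 0.0432) and the receptors Igf1r (-0.39, limma adjusted p = 0.0435) and Igf2r (-0.37, limma adjusted p = 0.0404). All 3 lay close to the threshold and did not pass with cells matched on UMIs (adjusted p = 0.29, 0.0674 and 0.13). Fgfr1, at 50.3, 60.4, 59.0 and 41.0 against 27.9, 26.7, 100.2 and 32.3 CPM, did not pass (0.34, limma adjusted p = 0.362) and passed as higher without RL e13 replicate 1 (0.70, limma adjusted p = 0.000217).

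Guidance and adhesion genes were lower where they passed. Of 39 genes 27 were tested, and 9 passed lower and 0 higher (0 also at an unadjusted p under 0.05), where 15.1% of all genes were lower. The list's median was -0.27 against -0.08 for all genes. In the 3 larger libraries, 15 of 27 passed lower and 5 higher, against 30.1% and 21.6% of all genes. Leaving out RL e14 replicate 1, RL e14 replicate 2 or RL e13 replicate 2 left 1, 1 and 2 lower, thinning left 1 and no replicate block 0. Over all genes 455, 471 and 430 were lower without these libraries, 278 of 8134 with thinning and 499 of 8220 with no block. Lower calls thus fell over all genes too, and the count of the list rests on the library set and the setting. The ephrin receptors Epha4 (-0.87), Epha5 (-0.55) and Ephb2 (-0.32), the netrin receptors Dcc (-0.27) and Unc5c (-0.27), the semaphorins Sema3a (-0.52) and Sema6a (-0.51) and the adhesion gene L1cam (-0.54) were among them. Epha5 was the most abundant of these at 393, 249, 556 and 589 CPM against 574, 428, 788 and 779 (limma adjusted p = 0.00118).

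Cxcr4, the chemokine receptor that holds granule progenitors at the cerebellar surface, completed the 9. It stood at 128, 162, 168 and 156 CPM against 153, 214, 189 and 184, groups that overlap (difference -0.26 ± 0.06, limma adjusted p = 0.0208). In unscaled UMIs its difference was 0.21.

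Progenitor genes of the rhombic lip passed at 2 of 14, against 28.9% of all genes. Of 19 genes 14 were tested, and 1 passed higher and 1 lower. Without RL e13 replicate 1, 4 and 3 of 12 passed, against 21.6% and 30.1% of all genes, and 1 and 0 without any other library. Olig3, a helix-loop-helix factor of the rhombic lip, was higher at 35.3, 21.5, 115 and 39.6 CPM against 22.6, 9.44, 80.0 and 27.5, in 4 of 4 libraries (difference 0.59 ± 0.11, limma adjusted p = 0.00813). Dbi, an acyl-CoA binding protein gene, was lower (-0.20, limma adjusted p = 0.026). Sox2, the stem cell factor, did not pass at 84.2, 73.2, 93.0 and 78.8 against 73.8, 49.6, 183 and 76.5 CPM (-0.05, limma adjusted p = 0.875), nor did the radial glia gene Fabp7 (-0.18, limma adjusted p = 0.6).

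Otx2, a homeobox gene of the posterior cerebellum that is known for its role in medulloblastoma, was among the genes outside the cell cycle list with the largest positive differences. It stood at 218, 222, 103 and 121 CPM in Mki67+ Top2a+ cells against 131, 94.5, 17.6 and 69.7. Each library had more in its Mki67+ Top2a+ cells, and both day 14 libraries lay above both day 13 libraries on each side. The groups overlapped through the Mki67- Top2a- cells of RL e14 replicate 1. The difference was 1.23 ± 0.25 (limma adjusted p = 0.0111), and 0.88 without RL e13 replicate 1 (limma adjusted p = 7.61e-07). Thinned to 8000 UMIs per cell, Otx2 did not pass (0.98, limma adjusted p = 0.1).

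Eomes, a T-box gene of another glutamatergic lineage of the rhombic lip, did not follow Otx2, at 46.9, 34.7, 28.1 and 43.0 CPM against 65.7, 77.8, 16.2 and 51.8 (-0.28 ± 0.25, limma adjusted p = 0.426). Without RL e13 replicate 1 it passed as lower (-0.58, limma adjusted p = 0.00111). None of 10 immediate early genes, a class known to respond to tissue dissociation, passed in limma (1 higher and 3 lower at an unadjusted p under 0.05). Without RL e13 replicate 1, 3 higher and 4 lower passed, against 21.6% and 30.1% of all genes.

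Outside the lists, the rule for named genes took the 10 lowest and 10 highest genes. Gng3, a neuronal G protein gamma subunit, was lower at 43.2, 49.3, 26.4 and 48.9 CPM against 131, 208, 66.9 and 148 with no overlap (difference -1.54 ± 0.13, limma adjusted p = 0.000205). Rab3a, a GTPase of synaptic vesicles, stood at 20.3, 27.4, 23.5 and 20.1 against 68.3, 98.8, 30.5 and 67.8 CPM (difference -1.27 ± 0.23, limma adjusted p = 0.00721). Necab3 (-1.94), the potassium channel partner Dpp6 (-1.36), the neurite gene Lingo1 (-1.35), the homeobox gene Msx3 (-1.31) and the histone demethylase gene Kdm7a (-1.27) were also lower, beside Mapt, Stmn4 and Mxd4. Without cells carrying Eomes, Otx2 or the further marker, Dpp6 did not pass (-0.34, limma adjusted p = 0.0599) and Necab3 was -1.10. Dner, a neuronal Notch ligand outside the lists, was picked out after its values were seen, at 11.1, 10.2, 1.98 and 12.8 CPM against 27.1, 49.6, 28.4 and 36.7 (-1.58 ± 0.22, limma adjusted p = 0.00243), and -0.74 without those cells.

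The 10 highest were C330027C09Rik (3.38), the haspin kinase gene Gsg2 (2.76), Fam111a (2.56), Mlf1 (2.13), the folate enzyme gene Shmt1 (2.10), the centriole gene Cenpj (1.62), Samd1 (1.31), Otx2, Cmc2 (1.21) and Cntln (1.19). Several of them act in division although the cell cycle list does not hold them. Mlf1 stood at 50.8, 56.7, 61.0 and 45.6 CPM against 4.69, 7.43, 16.4 and 7.18, and Shmt1 at 57.7, 71.5, 104 and 52.7 against 10.1, 15.1, 14.3 and 10.2, both with no overlap.

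Unscaled UMIs asked whether a lower share of a cell's RNA was also a lower count per cell. Since Mki67+ Top2a+ cells held more UMIs, the median over all genes moved from -0.08 to 0.34, and 53.2% of genes were higher and 2.04% lower. Differences of unscaled UMIs are therefore to be read against 0.34. Of the 12 newborn neuron genes lower in CPM, 10 kept a lower mean per cell and 2 did not, and of the 6 differentiation factors 4 did and 2 did not. These are counts of sign only. Over the whole lists in unscaled UMIs, 6 of 23 newborn neuron genes passed lower and 5 higher, with a median of -0.03. For differentiation factors 3 of 20 passed lower and 6 higher, with a median of 0.19.

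Mapt averaged 0.375 ± 0.0790 UMIs per Mki67+ Top2a+ cell and 1.08 ± 0.591 per Mki67- Top2a- cell (SD over 4 libraries). Nhlh1 averaged 0.555 ± 0.123 and 1.03 ± 0.309, and Dll3 0.301 ± 0.0307 and 0.676 ± 0.154. Mxd4 averaged 1.02 ± 0.240 and 2.0 ± 0.218 UMIs. All 4 were lower per cell as well as in CPM, with log2 differences of -1.16, -0.77, -0.93 and -0.92. Sox4 (0.10), Cxcr4 (0.21), Mycn (0.17) and 16 other named genes changed sign and were lower only relative to the cell's total.

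**Figure D3:**
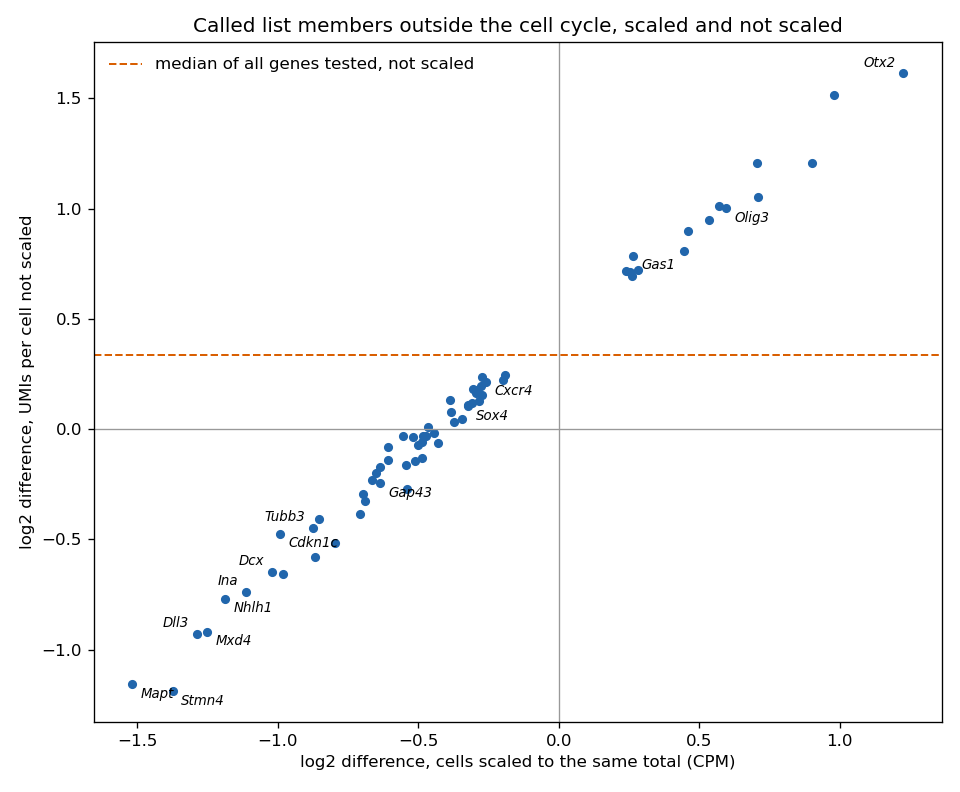
Log2 differences of list members outside the cell cycle that passed in CPM, with cells scaled to the same total (x) and with UMIs per cell not scaled (y), 1 point a gene. The dashed line is the median of all genes tested without scaling, 0.34, and Mapt, Stmn4, Dll3 and Mxd4 lie below 0 on both axes.

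Cells with only one of Mki67 and Top2a were not part of the test and lay between the groups for the neuronal genes. Mapt averaged 15.5, 34.0 and 60.3 CPM in cells with both, one and neither, Dcx 74.3, 146 and 164, and Nhlh1 23.6, 44.9 and 60.8. Of the 12 newborn neuron genes that passed, all 12 had such an intermediate mean, as had 5 of the 6 differentiation factors. So had 299 of 310 passing genes of the cell cycle list, 8 of 10 of the Myc network and 7 of 9 guidance genes. For cell cycle exit and G1 genes it was 9 of 13, and for BMP genes 2 of 4. An intermediate mean was thus not particular to the neuronal genes. Cdkn1c did not, with 72.2 CPM in these cells.

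The same split in another progenitor tested which differences the granule progenitors had beyond it. Cells with Sox2 and neither Atoh1 nor Barhl1 numbered 416 with both and 403 with neither of Mki67 and Top2a. Granule progenitors are here all Atoh1+ Barhl1+ cells, with those carrying Eomes or Otx2. Of 8458 genes tested, 4 had a difference that itself differed between the 2 kinds of progenitor (0.0473%, all larger in granule progenitors), while 339 higher and 332 lower had an unadjusted p under 0.05. The count was 22 without cells carrying Eomes, Otx2 or the further marker, a fit that also lacked RL e13 replicate 1. It was 26 with only that library left out. None of the 243 list members tested outside the cell cycle passed in limma (27 higher and 17 lower at an unadjusted p under 0.05).

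Peg3, an imprinted zinc finger gene, was higher in Mki67+ Top2a+ granule progenitors (168 ± 18.7 against 82.4 ± 13.6 CPM, SD, n = 4) but stood at 147 ± 27.0 against 168 ± 16.6 in Sox2 progenitors. Its differences were 0.99 and -0.20, and the difference between them was 1.19 ± 0.17 (limma adjusted p = 0.0309), in 4 of 4 libraries. Gas2l3, a cytoskeletal linker of dividing cells, had 47.5 ± 5.43 against 2.72 ± 1.03 CPM in granule progenitors and 69.5 ± 20.2 against 24.2 ± 7.88 in Sox2 progenitors (difference 1.41 ± 0.21, limma adjusted p = 0.0309).

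Prkcdbp, a caveola protein gene, had 49.3 ± 4.69 against 17.9 ± 3.78 CPM in granule progenitors and 154 ± 74.4 against 149 ± 101 in Sox2 progenitors (1.11 ± 0.17, limma adjusted p = 0.0372). The alpha tubulin gene Tuba1b had 1630.0 ± 207 against 454 ± 80.4 CPM and 1474 ± 178 against 627 ± 69.4 (0.62 ± 0.08, limma adjusted p = 0.0265). All 4 calls were lost with cells matched on UMIs.

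The neuronal lists were lower on the Mki67+ Top2a+ side in Sox2 progenitors too, by their medians. The median was -0.34 there and -0.47 in granule progenitors for newborn neuron genes, and -0.25 and -0.27 for differentiation factors. Other lists had medians as low in Sox2 progenitors, with -0.36 for immediate early, -0.25 for guidance and -0.21 for Notch genes. BMP genes (0.03) and receptor tyrosine kinase genes (0.0006) did not. No test within Sox2 progenitors is given, so a lower neuronal programme was not shown there. Mapt was at 10.1 ± 2.05 against 12.2 ± 3.93 CPM there, and its difference between the 2 kinds was -1.35 ± 0.32 (limma adjusted p = 0.224). Nhlh1 was at 1.93 ± 2.02 against 1.85 ± 3.71 CPM (-1.29 ± 0.26, limma adjusted p = 0.171). Neither passed; a lower neuronal programme was therefore not shown to be particular to granule progenitors. Mxd4 differed in the same direction in both, with 40.1 ± 8.14 against 115 ± 23.4 CPM in Sox2 progenitors (0.16 ± 0.21, limma adjusted p = 0.888), as did Cdkn1c (-0.99 and -0.86) and Otx2 (1.23 and 1.36).

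**Figure D4:**
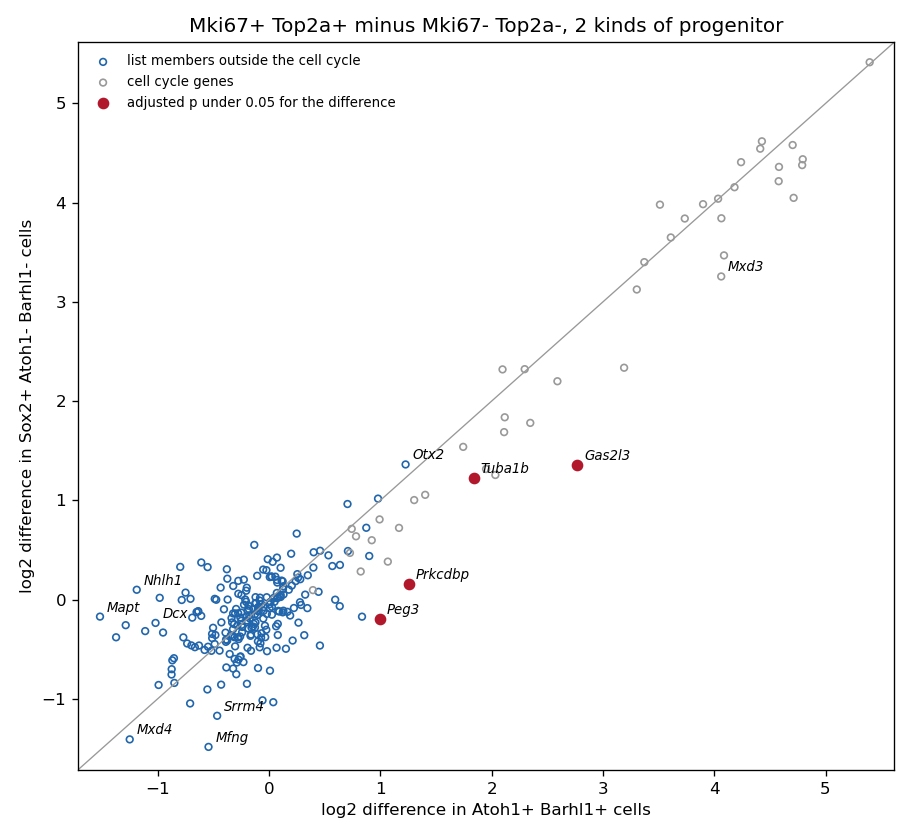
Log2 differences between cells with both and with neither of Mki67 and Top2a, in Atoh1+ Barhl1+ cells (x) and in Sox2+ Atoh1- Barhl1- cells (y), 1 point a gene, with the diagonal drawn. The 4 filled genes, Peg3, Gas2l3, Prkcdbp and Tuba1b, had an adjusted p under 0.05 for the difference between the axes and lie below the diagonal.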

How the data were processed

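Single cells were profiled with 10x Chromium 3' kits, per the labels' protocols, and per the submitters' processing notes Cell Ranger and the build mm10 were used. The natural log values the authors deposited are ln(1 + 10000 × UMIs / total UMIs of the cell), worked out from the values: 15971 genes, 100% of values above 0 whole UMIs within 0.01. No source used here states how cells were filtered. Libraries were taken from the deposited cell annotation, and 2676 cells whose batch matched no title were not used. Back-transformed values were averaged per side and library, both sides of 4 libraries (10 or more cells each), and scaled to CPM. limma 3.58.1 (R 4.3.3, trend) was fitted to log2(CPM + 5), for genes averaging at least 10 CPM over the 8 profiles; the added 5 shrinks differences of low genes, with the library as a block, since both sides come from the same cells' library. The second test took library by kind of progenitor as the block. Adjusted p-values are Benjamini-Hochberg over all genes tested. The cells were split by Mki67 and Top2a, so those genes, Atoh1 and Barhl1 got no test. The fits were also run on simulated data with the same depth and a fixed spread in every profile, unlike these data. The outcome is not given here and does not measure how firm the results are. The members and gene lists were chosen with earlier results of these data known. Named genes were up to 4 passing members of each list with the same direction in every library, members needed to account for the lists, the 10 highest and lowest outside the cell cycle list at 50 CPM or more, and the passing genes of the second test. 13 other settings, each library left out, and 2 settings chosen after seeing the data (matching on UMIs within 10%, unscaled UMIs) were run. Gene names are those of the files, and promoter letters come from RefSeq (GRCm38.p6).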

Additional observations from a re-analysis of the deposited data

Results flagged for a closer look

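The difference of 1 library lay far from the other 3 for 18 of 139 named genes tested, where chance gives about 1 in 20. In 15 of them that library was RL e13 replicate 1, with 21 and 26 cells. There Pax6 differed by 1.45 (-0.02 to 0.12 elsewhere), Neurod1 by 1.89 (-0.65 to -0.25), Insm1 by 1.53 (0.30 to 0.40), Hes6 by 0.38 (-0.09 to -0.07), Igfbpl1 by 0.82 (-0.24 to -0.14), Jag1 by 2.06 (0.30 to 0.59), Id2 by 0.43 (-0.04 to 0.04), Gli3 by -0.23 (0.85 to 0.97) and Boc by -0.71 (-0.09 to 0.01). Mxd4 differed by -0.62 there (-1.50 to -1.41), Rab3a by -0.32 (-1.68 to -1.53), Igf1r by -0.84 (-0.27 to -0.19), Lingo1 by -2.32 (-1.11 to -0.97), Nusap1 by 6.06 (5.10 to 5.25) and Cdk1 by 5.24 (4.46 to 4.58). Cdkn2d stood apart in RL e14 replicate 1 (1.16, with 0.90 to 0.94 elsewhere), and in RL e13 replicate 2 so did Nbl1 (-0.51, with -0.41 to -0.40) and Peg3 (0.86, with 1.03 to 1.05).

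The difference between Mki67+ Top2a+ and Mki67- Top2a- cells itself differed between granule and Sox2 progenitors in limma for Tuba1b (0.62), Prkcdbp (1.11), Peg3 (1.19) and Gas2l3 (1.41). 5 further genes moved one way in both day 14 libraries and the other way in both day 13 libraries by title. Their mean differences were -0.21 and 0.16 for Nrn1, 0.35 and -0.27 for Hes1, -0.0265 and 0.24 for Id2, 0.28 and -0.10 for Axin2, and 0.33 and -0.69 for Fabp7. These differences between days were not tested, and RL e13 replicate 2 has an age tag of day 14. Among many genes, splits of sign by day over 4 libraries also arise by chance.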

How the results depend on the processing

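Of 100 named genes that passed, all 100 kept their direction, where tested, and 35 also their call in each of 18 alternatives other than unscaled UMIs, and all 100 passed without RL e13 replicate 1. These genes were named because they passed, part of them also for the same direction in every library, and they include cell cycle genes. Their kept direction was thus partly fixed by the choice and does not measure how firm the results are. Over all genes, 1134 were higher and 1241 lower. Thinning each cell to 8000 UMIs gave 568 and 278, unscaled UMIs 4373 and 168, and leaving out each library in turn 719 to 1770 and 430 to 2467. Cells matched on UMIs gave 812 and 578, cells without Rrm2, Hells and Uhrf1 on the Mki67- Top2a- side 1607 and 1981, and no replicate block 794 and 499. Centring on the median difference gave 1344 and 857, a split of higher against lower turned round from 1134 and 1241. The number of genes that differed between granule and Sox2 progenitors was 4. It was 8 with pooled UMIs, 9 with 3 or more UMIs of Mki67 and Top2a, 7 with a pseudocount of 20 and 7 without the 5% deepest cells. It was 22 without cells carrying Eomes, Otx2 or a further marker, 2 with unscaled UMIs and 2 without the S phase carriers. It was 0 with thinning, with cells of 10000 to 25000 UMIs, with no filter on low values, with cells matched on UMIs and with no replicate block, and 0 to 26 over the libraries left out. Fewer genes or cells in a fit can move such counts, and the cause was not tested. RL e13 replicate 1 fell under 10 cells on a side and left the fit with cells of 10000 to 25000 UMIs, without the S phase carriers, and without cells carrying Eomes, Otx2 or the further marker. Unscaled UMIs turned the sign of 19 genes that passed: Meis1 (0.19), Rbpj (0.18), Mycn (0.17), Nkd1 (0.18), Igf1r (0.13), Igf2r (0.0302), Dbi (0.22), Sox4 (0.10), Bhlhe22 (0.13), Stmn3 (0.12), Srrm4 (0.0072), Btg1 (0.17), Btg2 (0.0753), Cxcr4 (0.21), Dcc (0.16), Unc5c (0.23), Ephb2 (0.11), Max (0.0471) and Ldha (0.24). Of genes that had not passed, they turned Nrn1 (0.43), Map1b (0.29), Smo (0.37), Fst (0.23), Ctnnb1 (0.38) and Mycl (0.30). Left without RL e13 replicate 1, Neurod1 (-0.46), Igfbpl1 (-0.18), Sp5 (-0.10) and Sox2 (0.25) turned. Without cells carrying Eomes, Otx2 or the further marker, Meis2 (0.59), Hes6 (-0.16), Igfbpl1 (-0.24), Ccnd2 (-0.93), Id2 (-0.29), Sp5 (-0.29) and Fabp7 (0.28) turned. Without the S phase carriers Neurod1 (-0.86), Igfbpl1 (-0.26) and Sox2 (0.40) turned, and with cells of 10000 to 25000 UMIs Neurod1 (-0.34). The depth gap between the groups limits genes at low levels, and their detection in a cell cannot be told apart from depth.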

Other observations

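Genes of the cytosolic ribosome, picked out after the data were seen, were lower in Mki67+ Top2a+ granule progenitors relative to the total. Of 76 such genes tested, 60 passed lower and 0 higher in limma, with a median log2 difference of -0.20 against -0.08 for all genes, and 15.1% of all genes were lower. Centred on the median of all genes, the median of the ribosomal genes was -0.14. In unscaled UMIs 70 of the 76 were higher per cell, with a median of 0.24 against 0.34 for all genes.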
